A study of Mus musculus with 3 samples.

Results

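RNA counts from transcript 3′ ends were examined for mouse embryonic fibroblasts (MEFs) that received siRNAs against Prmt5 and were then taken through early reprogramming. The siPrmt5 condition held 3 libraries, 1 in each sequenced pool, of the 127 libraries present in both deposited tables, and they were chosen by the condition and replicate number in their column names. The control for every first comparison was nt, a non-targeting siRNA (3 libraries), and Mock, a mock-transfected condition without a gene target (5 libraries), served as another control. All cells were wild-type BL6 MEFs of passage 1 to 2 that carried a doxycycline-inducible lentiviral cassette of Oct4, Sox2, Klf4 and c-Myc, nt and Mock included, and the transfected cells were re-plated, induced and collected at day 6. The induction medium of all groups also held LIF, ascorbic acid, chiron (an inhibitor of GSK3) and Alk5i, which blocks TGF-beta signalling. Libraries of untransfected MEFs from Day00 to Day06 and of 32 other gene-targeting siRNAs (95 libraries) were used where named. The siRNAs against each gene were a pool, so that single siRNAs cannot be told apart. The study's methods describe transfections in triplicate, but no source used here ties the libraries to separate MEF preparations, and p-values then measure only the spread between these libraries, which may be technical.

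PRMT5 is the main enzyme that places symmetric dimethyl marks on arginines. It works in a complex with WDR77 (also called MEP50) and is led to its substrates by partner proteins, among them CLNS1A, which brings the Sm proteins of the spliceosome, RIOK1, which brings nucleolar and ribosomal substrates, and COPRS, which brings histones. The enzyme is known for its part in splicing, ribosome production and the maintenance of germ cells and early embryonic cells, and loss of its activity is known to alter splicing of p53 pathway transcripts.

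Depth was low. The siPrmt5 libraries held 62683, 61446 and 132330 counts in replicates 1, 2 and 3, the nt libraries 75100, 80136 and 143156, and the Mock libraries 38925 to 83089, within a range of 29656 to 235292 and a median of 73279 over all libraries. Of 50507 listed genes 3013 passed the filter on low counts, and levels are given below as CPM, which is counts of a gene set to the same scaled total of tested genes in every library. Mitochondrially encoded transcripts took 22.6% to 29.9% of the counts in siPrmt5, 22.8% to 26.3% in nt and 22.9% to 28.6% in Mock. All 12 fibroblast markers had a count in each of the 3 conditions, with a summed level of 3259 to 3545 CPM in siPrmt5, 2173 to 3197 in nt and 2607 to 4093 in Mock. Of the blood markers 3 of 11 had a count in siPrmt5, 2 in nt and 2 in Mock, their summed level did not pass 51.6 CPM in any of these libraries, and Ptprc and Adgre1 were at 0. Endothelial markers with a count numbered 2, 2 and 1 of 8 at up to 33.3 CPM with Cdh5 at 0, and neural markers 5, 3 and 7 of 8 at 122 to 227 CPM in siPrmt5, 164.5 to 204 in nt and 206 to 288 in Mock with Rbfox3 at 0. Skeletal or smooth muscle markers with a count numbered 5, 3 and 2 of 9, with Myod1 and Myog at 0, and their summed level of 83.4, 206 and 209 CPM in siPrmt5 lay above the 83.3, 59.8 and 73.5 CPM of nt and overlapped the 44.8 to 173 CPM of Mock. These are bulk libraries, in which fewer cells of a type and less RNA per cell cannot be told apart.

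The target came first. Prmt5 lies on the minus strand of chromosome 14 (chr14:54507187-54517525, mm10). The study pooled 3 siRNAs against each gene, and the antisense strands of 2 of those against Prmt5 are shown because they give the place in the transcript that they aim at. The other was not analysed here. They were listed under the older symbol Skb1, and each is written 5′ to 3′ with the seed, bases 2 to 8, in capitals.
siRNA 71746: uAGAAAGAacaggaaaucctt
siRNA 188531: gCUCCUGUaacauagccgctt
The first had an exact site in exon 7 of the coding sequence (chr14:54513326-54513344), and Prmt5 was the only gene with an exact site for it. The other matched across the junction of exon 3 (chr14:54516106-54516108) and exon 4 (chr14:54515422-54515437) with 1 mismatch, C19T, counted from the 5′ end of the sense strand (first the siRNA base, then the transcript base), and no gene held its exact site. These 2 sites lie in the coding sequence, away from the 3′ end that the counts measure.

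The Prmt5 transcript was detected at 4, 5 and 8 counts in the siPrmt5 libraries, at 8, 11 and 9 counts in nt, and at 2, 0, 2, 4 and 4 counts in Mock. On the CPM scale these were 83.4, 103 and 69.8 in siPrmt5 against 133, 165 and 73.5 in nt and 51.6, 0, 57.7, 99.3 and 59.7 in Mock. The siPrmt5 values overlapped those of both controls, and within each replicate siPrmt5 lay below nt and above Mock. The log2 fold change was -0.45 ± 0.47 (SE) against nt (edgeR adjusted p = 0.794), 0.62 ± 0.55 against Mock (edgeR adjusted p = 0.767) and 0.01 against the other siRNAs. Summed over the 3 libraries, siPrmt5 held 17 Prmt5 counts where 17.8 would follow from its depth and the mean level of the transfected libraries, a ratio of 0.953 with an exact 95% Poisson interval of 0.555 to 1.53. The same ratio was 1.35 (0.894 to 1.94) in nt and 0.586 (0.303 to 1.02) in Mock, and these intervals cover counting error only. Over 106 transfected libraries the Prmt5 count was 0 to 15 with a median of 6. A lower Prmt5 transcript level in the siPrmt5 libraries was therefore not detectable at this depth, and the interval still allows one.

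The known partners stayed near or below the filter. Wdr77 (chr3:105959369-105970037), the obligate partner of PRMT5, had a log2 fold change of 0.28 ± 0.71 against nt (edgeR adjusted p = 0.923). Riok1 was at 62.6, 20.6 and 69.8 CPM in siPrmt5 and at 99.9, 150 and 81.7 CPM in nt, groups that did not overlap, but its change of -0.91 ± 0.56 did not pass (edgeR adjusted p = 0.602) and siPrmt5 overlapped Mock. Clns1a had -0.12 ± 0.61 and Coprs 0.16 ± 1.06, both from a further fit that added genes under the filter. Prmt1, which deposits the asymmetric form of the mark, was at 146, 186 and 192 CPM against 200, 135 and 327 CPM in nt (log2 fold change -0.41 ± 0.35, edgeR adjusted p = 0.752). Of the 13 family members and partners 12 had a count and 3 were tested, and none was called.

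Against nt, 12 genes were higher and 15 lower in siPrmt5 at an adjusted p under 0.05 (edgeR quasi-likelihood test with the replicate number as a block), which is 27 of 3013, or 0.896% of the genes tested. A total of 321 genes had an unadjusted p under 0.05, and the median log2 change over all genes was 7.77e-05. The genes that fell included 4 copies of Npm1, Bnip3 and Pgk1 of the glycolysis and low-oxygen list, the metallothionein Mt2, the chaperonin subunits Cct8 and Tcp1, and Msmo1 of cholesterol synthesis. The genes that rose included Emp3, Col1a1, Inhbb, Ccnd2, Plpp3, Dclk1 and the locus Gm42418. All 12 higher and all 15 lower genes moved the same way in each of the 3 replicates. The siPrmt5 libraries did not overlap nt in 10 of the 12 higher and 12 of the 15 lower genes, and did not overlap Mock in 3 and 2. Of those 3 higher genes Emp3 and Gm42418 lay above Mock, whereas Gm21738 lay below it, and the 2 lower genes, Gm5611 and Gm17060, lay below it. All 27 genes were picked by the test against nt on these libraries. Their shared direction in the replicates and their separation from nt therefore follow largely from that choice. The share of all tested genes with such separation was not computed. The block weighed on the count: without it 2 genes were called, Gm5611 and Gm17060, both lower. Leaving out replicate 1, 2 or 3 gave 16, 12 or 3 calls. Of the 27, Gm5611 and Gm17060 were called in each of these fits. Bnip3, Mt2, Gm14776, Pgk1, Gm26384, Ccnd2 and Col1a1 were called without replicate 1 and without replicate 2 but not without replicate 3, the deepest. Gm14681, Gm6204 and Gm42418 were called when replicate 1 was the one left out, Msmo1 and Inhbb when it was replicate 2, and Gm21738 when it was replicate 3. Each of the remaining 12 genes lost its call whichever replicate was left out. With limma on the deposited log2 values none passed, and 608 of 10568 genes had an unadjusted p under 0.05.

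**Figure D1:**
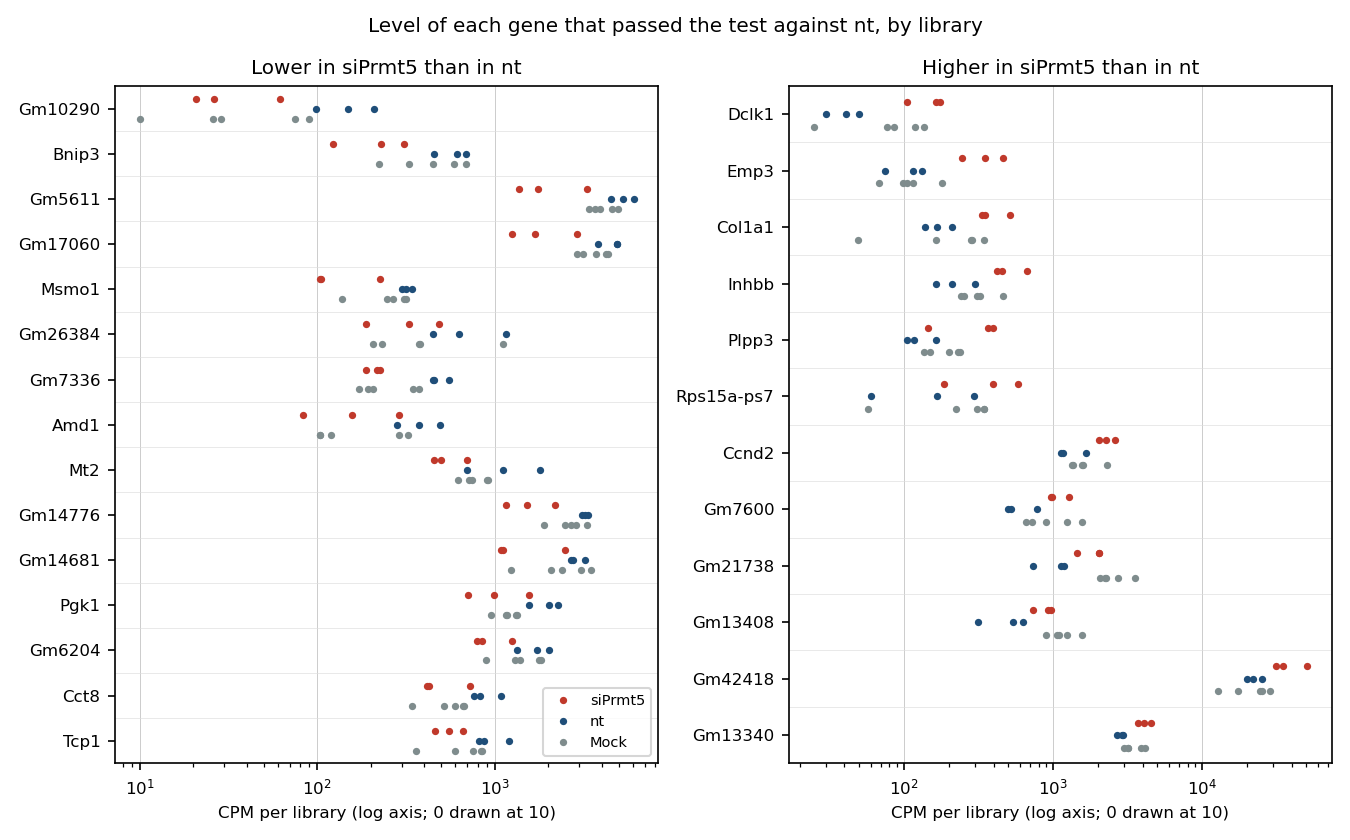
Level in CPM (log axis, a value of 0 drawn at 10) of the 15 lower and 12 higher genes in each siPrmt5 (red), nt (blue) and Mock (grey) library. The red points lie apart from the blue ones for 12 of the 15 lower and 10 of the 12 higher genes, and apart from the grey ones for 2 and 3, of which Gm21738, a gene higher than nt, lies below Mock. The genes were picked by the test against nt, so separation of red from blue follows largely from that choice.

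The most evident decrease was in processed copies of Npm1, the gene of nucleophosmin, an abundant nucleolar chaperone of ribosome assembly. Gm5611 (chr9:17030045-17030896), Gm17060 (chr6:49424061-49424884), Gm14776 (chrX:87771339-87772352) and Gm14681 (chrX:66778442-66778852) aligned to the Npm1 coding sequence with 97.5%, 94.1%, 92.5% and 99.5% identity over 852, 819, 791 and 408 bases. A 60 base stretch, coding bases 567 to 626 of 876, is printed to show how little separates them, with capitals in Npm1 where at least 1 copy differs and capitals in a copy at its own differences.
Npm1: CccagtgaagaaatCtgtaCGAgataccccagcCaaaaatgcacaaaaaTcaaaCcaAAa
Gm14681: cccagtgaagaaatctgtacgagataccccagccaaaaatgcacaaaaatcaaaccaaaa
Gm5611: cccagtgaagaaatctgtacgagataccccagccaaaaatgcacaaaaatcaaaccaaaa
Gm14776: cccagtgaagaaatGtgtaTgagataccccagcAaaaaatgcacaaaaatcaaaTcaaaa
Gm17060: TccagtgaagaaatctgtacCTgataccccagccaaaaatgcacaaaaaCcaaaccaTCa
In this stretch Gm14681 and Gm5611 had 0 differences from Npm1, Gm14776 had 4 and Gm17060 had 6. Reads can therefore be split among these loci by the counting, and the single loci are uncertain.

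Gm5611 was at 3316, 1753 and 1378 CPM in siPrmt5, at 5262, 6057 and 4501 CPM in nt and at 4954, 4601, 3690, 3897 and 3418 CPM in Mock. All siPrmt5 libraries lay below every nt and Mock library. Its log2 fold change against nt was -1.36 ± 0.19 (edgeR adjusted p = 6.85e-08). Gm17060 was at 2920, 1692 and 1256 CPM against 4896, 4906 and 3807 CPM in nt and 4232, 4326, 3142, 3699 and 2926 CPM in Mock. It did not overlap either control, and its change was -1.27 ± 0.19 against nt (edgeR adjusted p = 3.76e-07). Gm14776 changed by -1.05 ± 0.20 and Gm14681 by -0.97 ± 0.19 (edgeR adjusted p = 0.000242 and 0.0005), both apart from nt and both overlapping Mock. Against Mock all 4 copies were also lower, with log2 changes of -0.95, -0.92, -0.75 and -0.73 in the order given (edgeR adjusted p = 0.000716, 0.00078, 0.0199 and 0.0199). These comparisons share the siPrmt5 libraries.

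Npm1 itself (chr11:33152287-33163206) was at 5339, 4353 and 4309 CPM in siPrmt5 and at 5729, 5997 and 6977 CPM in nt. The groups did not overlap, and the log2 change of -0.42 ± 0.14 did not pass (edgeR adjusted p = 0.126). Summing the counts of Npm1 and its 7 copies (identity of at least 90%) gave 16580, 10727 and 9395 CPM in siPrmt5, 22848, 23271 and 21559 CPM in nt and 20979, 22214, 15133, 19189 and 19584 CPM in Mock. Replicate 1 was the highest of the siPrmt5 libraries and overlapped the lowest Mock library. The sum fell by 0.90 ± 0.16 on the log2 scale against nt (edgeR adjusted p = 1.65e-05) and fell by 0.67 ± 0.14 against Mock (edgeR adjusted p = 0.00159). Against the other siRNAs the sum changed by -0.23 ± 0.11 (edgeR adjusted p = 0.535). The mean of nt, 22559 ± 892 CPM (SD, n = 3), was high among the conditions: the means of Gm5611, Gm17060 and Gm14776 lay below nt in all 32 other siRNAs. Of these 32, 27 had a higher summed mean than siPrmt5 and 5 a lower one, with siWdr5 the lowest at 6864 CPM. Untransfected cells had 2012 CPM at Day00 and 4553 CPM at Day06.

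**Figure D2:**
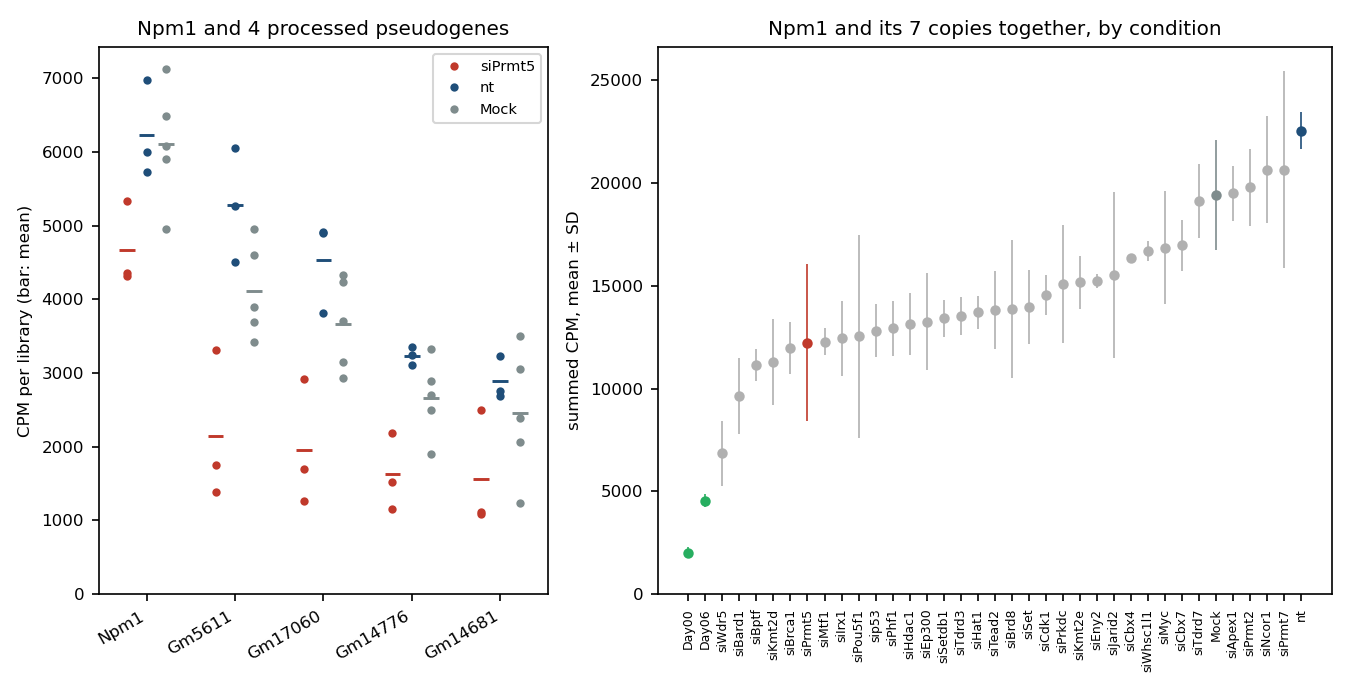
Left, CPM of Npm1 and 4 of its copies in each siPrmt5, nt and Mock library with a bar at the mean; right, summed CPM of Npm1 and 7 copies by condition (mean ± SD). The siPrmt5 sum lies below the nt mean of 22559 and above the siWdr5 mean of 6864.

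Bnip3 and Pgk1, of the list of glycolysis and low-oxygen response genes, were both lower than nt. Bnip3 (chr7:138890836-138909519) encodes a mitochondrial outer membrane protein that promotes removal of mitochondria and is a known target of hypoxia-inducible factors. It was at 229, 309 and 122 CPM in siPrmt5, at 616, 688 and 458 CPM in nt and at 594, 446, 692, 223 and 328 CPM in Mock. The siPrmt5 libraries lay below all nt libraries and overlapped Mock. The log2 change was -1.51 ± 0.30 against nt (edgeR adjusted p = 0.000523), -1.08 against Mock (edgeR adjusted p = 0.064) and -0.80 against the other siRNAs (edgeR adjusted p = 0.245). Of the 32 other siRNAs 28 had a higher mean, and siWdr5 (89.3 CPM), siBard1 (115 CPM), siEp300 (129 CPM) and sip53 (204 CPM) a lower one. Untransfected cells were at 61.4 CPM at Day00 and 65.5 CPM at Day06. The gene Gm45507 overlaps Bnip3 on the opposite strand.

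Pgk1 (chrX:106187100-106203699), the glycolytic phosphoglycerate kinase, was at 709, 1568 and 995 CPM in siPrmt5 and at 1565, 2273 and 2026 CPM in nt. Replicate 2 of siPrmt5 reached the lowest nt library, so the groups overlapped narrowly. Pgk1 fell by 0.87 ± 0.19 on the log2 scale against nt (edgeR adjusted p = 0.00162), while its value against Mock was -0.17 (edgeR adjusted p = 0.83). Mock was itself lower than nt (-0.70, edgeR adjusted p = 0.00771), and all 32 other siRNAs had a mean below nt. Copies of Gapdh, a glycolytic dehydrogenase, were lower as well. Gm10290 (chr5:28538570-28539568) had 7 counts against 35 in nt and a change of -2.03 ± 0.56 (edgeR adjusted p = 0.0434), and Gm7336 (chr7:51746647-51747878) was at 188, 227 and 218 CPM against 550, 449 and 458 CPM (-1.17 ± 0.29, edgeR adjusted p = 0.0113). Gapdh summed with its copies was at 3942, 6684 and 3769 CPM against 8926, 7568 and 6446 CPM in nt and changed by -0.69 against nt (edgeR adjusted p = 0.0274), by 0.26 against Mock, and by -0.95 in Mock against nt (edgeR adjusted p = 3.78e-05). Gapdh alone had -0.24 (edgeR adjusted p = 0.843).

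The RefSeq promoters (GRCm38.p6, from 250 bases before to 50 after the start) of Bnip3 (chr7:138909457-138909756, minus strand) and Pgk1 (chrX:106186850-106187149, plus strand) are shown because both genes belong to the list and were lower. Capitals mark the letters ACGTG, a form of the core of the hypoxia response element, on either strand. The core can also begin with G in place of A, and that form was not searched or marked.
Bnip3: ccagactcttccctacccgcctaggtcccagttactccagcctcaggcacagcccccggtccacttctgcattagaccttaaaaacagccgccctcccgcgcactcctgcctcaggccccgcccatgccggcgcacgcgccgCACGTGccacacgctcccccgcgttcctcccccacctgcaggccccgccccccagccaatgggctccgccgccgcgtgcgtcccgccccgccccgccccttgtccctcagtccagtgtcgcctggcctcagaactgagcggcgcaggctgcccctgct
Pgk1: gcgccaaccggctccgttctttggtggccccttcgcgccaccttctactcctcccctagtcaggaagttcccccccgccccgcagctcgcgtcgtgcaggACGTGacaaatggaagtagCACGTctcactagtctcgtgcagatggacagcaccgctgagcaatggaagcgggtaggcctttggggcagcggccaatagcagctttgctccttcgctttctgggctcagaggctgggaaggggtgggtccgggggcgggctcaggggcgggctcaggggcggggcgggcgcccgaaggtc
Each promoter held 2 matches to the form searched, those of Bnip3 overlapping each other on the opposite strands. Of 32851 promoters of this length 19.6% held the letters, and a match describes the sequence only.

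Of the 35 genes of the glycolysis and low-oxygen list 15 were tested, and 2 were called, both lower (Pgk1 and Bnip3), where 0.896% of all genes tested were called in either direction. The 15 had a median log2 change of -0.33 against 7.77e-05 over all genes. The median was -0.01 against Mock and -0.18 in Mock against nt, and -0.10 against nt without replicate 1. Pkm, the last kinase of glycolysis, had -0.50 (edgeR adjusted p = 0.264), Ldha, lactate dehydrogenase A, had 0.04, and Adm, the hypoxia-inducible peptide adrenomedullin, had 1.86 (edgeR adjusted p = 0.354). The summed level of the list was 4588 to 7282 CPM in siPrmt5, 6862 to 8256 CPM in nt and 5700 to 7033 CPM in Mock.

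Metallothioneins bind zinc and copper and are induced by metals and stress. Mt2 (chr8:94172664-94173568) was at 501, 454 and 698 CPM in siPrmt5, at 699, 1107 and 1805 CPM in nt and at 619, 721, 922, 745 and 911 CPM in Mock. The highest siPrmt5 library lay just under the lowest nt library. Mt2 fell by 1.12 ± 0.21 on the log2 scale against nt (edgeR adjusted p = 0.000119), and its value was -0.55 against Mock (edgeR adjusted p = 0.256) and -0.65 against the other siRNAs (edgeR adjusted p = 0.0604). Of the 32 other siRNAs 29 had a higher mean, and untransfected cells went from 51.8 CPM at Day00 to 973 CPM at Day06. The neighbouring Mt1 was at 271, 289 and 358 CPM against 400, 568 and 613 CPM in nt, without overlap, and did not pass (-0.78, edgeR adjusted p = 0.141). Gm45774 overlaps Mt2 on the opposite strand. The Mt2 promoter (RefSeq, GRCm38.p6, chr8:94172368-94172667, plus strand) is shown with capitals at TGCGCNC on either strand, which is 1 form of the core of the metal response element. The core can also hold A in place of the middle G, and that form was not searched or marked.
Mt2: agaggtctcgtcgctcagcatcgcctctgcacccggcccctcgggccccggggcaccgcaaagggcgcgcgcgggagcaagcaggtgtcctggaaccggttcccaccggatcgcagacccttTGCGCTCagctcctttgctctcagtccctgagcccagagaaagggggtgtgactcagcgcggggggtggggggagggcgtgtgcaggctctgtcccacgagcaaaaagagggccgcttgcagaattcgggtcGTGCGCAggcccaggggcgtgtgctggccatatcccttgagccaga
It held 2 matches to the form searched, and 15.4% of the 32851 promoters held at least 1.

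Both Cct8 (chr16:87483326-87495873) and Tcp1 (chr17:12915701-12925067) encode subunits of the TRiC chaperonin, which folds actin and tubulin. Cct8 was at 417, 722 and 427 CPM in siPrmt5 and at 766, 1092 and 825 CPM in nt. Tcp1 was at 459, 660 and 550 CPM against 866, 1196 and 817 CPM. Neither overlapped nt, both overlapped Mock (-0.16 and -0.22 against Mock), and the log2 changes against nt were -0.81 ± 0.21 and -0.75 ± 0.21 (edgeR adjusted p = 0.0195 and 0.0498). Cct8 was also lower in Mock than in nt (-0.66, edgeR adjusted p = 0.0497), and both genes overlap others on the opposite strand (Usp16; Acat3 and Mrpl18). Tcp1 did not pass with another scaling of the libraries.

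Amd1 (chr10:40287458-40302186), which makes the aminopropyl donor for polyamines from S-adenosylmethionine, was at 83.4, 289 and 157 CPM in siPrmt5, at 283, 494 and 376 CPM in nt and at 103, 103, 288, 323 and 119 CPM in Mock. Replicate 2 of siPrmt5 overlapped nt. Its log2 change was -1.15 ± 0.30 against nt (edgeR adjusted p = 0.0260) and -0.06 against Mock, and Mock was lower than nt as well (-1.09, edgeR adjusted p = 0.0227). Summed with its copies it did not pass (-0.64, edgeR adjusted p = 0.127). Msmo1 (chr8:64718139-64733792), the sterol methyl oxidase of cholesterol synthesis, was at 104, 227 and 105 CPM in siPrmt5, at 316, 299 and 343 CPM in nt and at 310, 137, 317, 248 and 269 CPM in Mock. It lay below all nt libraries and overlapped Mock. Msmo1 fell by 1.25 ± 0.34 against nt on the log2 scale (edgeR adjusted p = 0.0348), all 32 other siRNAs had a higher mean, and the value against them was -0.89 (edgeR adjusted p = 0.2). Of the 15 lower genes it was the 1 with no near-identical copy (95% identity), no coding gene that it resembled at 90% identity or more, and no gene on the opposite strand.

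The last of the lower genes were unnamed copies. Gm26384 (chr17:21284103-21284212), 98.2% identical to Eef1a1 of translation elongation, changed by -1.18 ± 0.23 (edgeR adjusted p = 0.0005), and Eef1a1 summed with its copies by -0.63 (edgeR adjusted p = 0.0403). Gm6204 (chr3:53692422-53692878), a copy of the ribosomal protein gene Rps14, changed by -0.82 ± 0.18 (edgeR adjusted p = 0.00216), and the sum over Rps14 and its copies did not pass (-0.49, edgeR adjusted p = 0.0773).

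Of the genes that rose, Emp3 lay above both controls. It encodes a small membrane protein of the epithelial membrane protein family that is abundant in mesenchymal cells (chr7:45918023-45921404). Emp3 was at 459, 351 and 244 CPM in siPrmt5, at 133, 74.8 and 114 CPM in nt and at 181, 68.7, 115, 99.3 and 105 CPM in Mock. Each siPrmt5 library lay above each nt and Mock library. The total counts were 67, 27 and 24, and the log2 change was 1.60 ± 0.38 against nt (edgeR adjusted p = 0.00731), 1.48 ± 0.38 against Mock (edgeR adjusted p = 0.0199) and 1.06 ± 0.25 against the other siRNAs (edgeR adjusted p = 0.0368). The siPrmt5 mean of 351 ± 107 CPM (SD, n = 3) was the highest of the 33 siRNAs, the next being siBard1 at 257 CPM. Untransfected cells were at 318 CPM at Day00 and 187 CPM at Day06. Against nt the call was lost when any single replicate was left out and without the block.

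Col1a1 (chr11:94936224-94953042), the main chain of fibrillar collagen and a fibroblast marker, was at 334, 351 and 515 CPM in siPrmt5, at 167, 209 and 139 CPM in nt and at 284, 343, 288, 49.7 and 164 CPM in Mock. All siPrmt5 libraries lay above nt, and replicate 1 of siPrmt5 was below the highest Mock library. The log2 change was 1.34 ± 0.32 against nt (edgeR adjusted p = 0.00685), 0.99 against Mock (edgeR adjusted p = 0.0821) and 0.78 against the other siRNAs (edgeR adjusted p = 0.0862). Of the 32 other siRNAs 27 had a lower and 5 a higher mean, siWdr5 being at 1055 CPM. In untransfected cells Col1a1 went from 1327 CPM at Day00 to 458 CPM at Day06.

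Col1a1 was the only called member of the mesenchymal and matrix list, of whose 52 genes 40 were tested. Of those 40, 36 had a log2 change above 0 and 4 below, 11 an unadjusted p under 0.05 with a positive change and 0 with a negative one (321 of all 3013 genes had such a p in either direction), and the median was 0.51 against 7.77e-05 over all genes. Timp2, an inhibitor of matrix metalloproteinases, averaged 739 ± 118 CPM in siPrmt5 and 434 ± 118 CPM in nt (SD, n = 3) without passing (log2 change 0.80 ± 0.24, edgeR adjusted p = 0.0716). Prrx1, a mesenchymal transcription factor, had 0.85 ± 0.29, Col1a2, the partner chain of Col1a1, 0.74 ± 0.27, and Sparc, a collagen-binding matrix protein, 0.67 ± 0.24 (edgeR adjusted p = 0.148, 0.186 and 0.181). Vim, the intermediate filament of mesenchymal cells, had 0.47 ± 0.20 (edgeR adjusted p = 0.335). The members ranged from Lum at -0.48 to the smooth muscle light chain Myl9 at 2.62. The median was 0.31 against Mock, 0.25 against the other siRNAs and 0.31 in Mock against nt, and 32 of the 40 were above 0 in Mock against nt. Between Day00 and Day06 of the untransfected course 27 of the 40 genes fell and 3 rose (median -1.62). The summed level of the list was 11593 to 14280 CPM in siPrmt5, 9527 to 11307 CPM in nt and 9687 to 12510 CPM in Mock, where Mock overlapped siPrmt5. The summed muscle and fibroblast markers were also higher in each siPrmt5 library than in each nt library, by narrow margins. The lowest siPrmt5 and highest nt values were 83.4 and 83.3 CPM for muscle and 3259 and 3197 CPM for fibroblast markers. Mock overlapped siPrmt5 in both. Acta2, Cnn1 and the collagens stand in both kinds of list, and the part of these markers in the result was not tested.

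Inhbb (chr1:119415465-119422248), which encodes the beta B subunit of activins and inhibins, was at 667, 454 and 419 CPM in siPrmt5, at 300, 209 and 163 CPM in nt and at 310, 240, 461, 323 and 254 CPM in Mock. It lay above all nt libraries and overlapped Mock. The log2 change was 1.22 ± 0.28 against nt (edgeR adjusted p = 0.00517) and 0.71 against Mock (edgeR adjusted p = 0.198). Inhbb was at 24.9 CPM at Day00 and 383 CPM at Day06. Ccnd2 (chr6:127125162-127152193), cyclin D2 of the G1 phase, was at 2607, 2022 and 2251 CPM in siPrmt5, at 1665, 1167 and 1127 CPM in nt and at 1342, 1579, 1557, 2284 and 1358 CPM in Mock. The siPrmt5 libraries were above nt, and 1 Mock library reached into their range. Ccnd2 rose by 0.82 ± 0.17 against nt (edgeR adjusted p = 0.000913), its value was 0.53 against Mock (edgeR adjusted p = 0.067), and 29 of the 32 other siRNAs had a lower mean. Genes 9330179D12Rik and Gm43126 overlap Ccnd2 on the opposite strand.

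Dclk1 (chr3:55242364-55539068), a microtubule-associated kinase, had 33 counts in siPrmt5, 10 in nt and 19 in Mock. Its levels were 104, 165 and 175 CPM against 50, 29.9 and 40.9 CPM in nt, with no overlap, and the log2 change was 1.90 ± 0.51 (edgeR adjusted p = 0.0348). Against Mock the value was 0.79 (edgeR adjusted p = 0.559), and the means of all 32 other siRNAs were above nt. Gm21954 and Gm42609 lie opposite to it. Plpp3 (chr4:105157347-105232764), a lipid phosphate phosphatase of the cell surface, was at 396, 144 and 366 CPM against 117, 105 and 163 CPM in nt. Replicate 2 of siPrmt5 overlapped nt, and the change was 1.21 ± 0.33 (edgeR adjusted p = 0.0399).

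Gm42418 (chr17:39846958-39848788), annotated as a long non-coding RNA and overlapped by AY036118 and CT010467.1 on the opposite strand, took 2.38%, 4.0% and 3.0% of all counts in siPrmt5 and 1.74%, 2.10% and 1.70% in nt. On the CPM scale it was at 31136, 50663 and 34667 in siPrmt5, at 21749, 25156 and 19852 in nt and at 12696, 24412, 17439, 28474 and 25122 in Mock. The siPrmt5 libraries were above every library of both controls. The log2 change was 0.79 ± 0.18 against nt (edgeR adjusted p = 0.00548), 0.83 ± 0.16 against Mock (edgeR adjusted p = 0.000716) and 0.85 ± 0.12 against the other siRNAs (edgeR adjusted p = 2.64e-08). Only siPhf1, siHdac1 and siKmt2e had higher means.

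The remaining higher loci were 4 copies of other genes and Gm21738. Gm7600 and Gm13408, both copies of the ribosomal protein gene Rps3a1, changed by 0.82 ± 0.20 and 0.79 ± 0.21 (edgeR adjusted p = 0.0113 and 0.0256), and the sum over Rps3a1 and its copies did not pass (0.45, edgeR adjusted p = 0.101). Gm21738 (chr14:19415857-19418930), annotated as protein-coding and without a near-identical gene, was at 2023, 2022 and 1457 CPM in siPrmt5, at 1132, 733 and 1193 CPM in nt and at 2060 to 3536 CPM in Mock. It lay above every nt library and below every Mock library, and changed by 0.80 ± 0.21 against nt (edgeR adjusted p = 0.0260). Gm7600, Gm13408 and Gm21738 were higher in Mock than in nt as well, by 0.85, 1.30 and 1.31 (edgeR adjusted p = 0.00358, 1.08e-07 and 1.08e-07), and their values in siPrmt5 against Mock were -0.02, -0.51 and -0.51. Rps15a-ps7 (chr2:152185291-152185682) changed by 1.12 ± 0.29 (edgeR adjusted p = 0.0256), and its family sum by 0.79 (edgeR adjusted p = 0.0082), with Mock above nt by 0.67 (edgeR adjusted p = 0.0275). Gm13340 (chr2:22588103-22589647), a nuclear copy of mt-Co1, was at 4505, 4084 and 3716 CPM against 2698, 2886 and 2957 CPM in nt (0.52 ± 0.15, edgeR adjusted p = 0.0486), while mt-Co1 itself had 0.44 (edgeR adjusted p = 0.0579) and their sum 0.36 (edgeR adjusted p = 0.175).

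**Figure D3:**
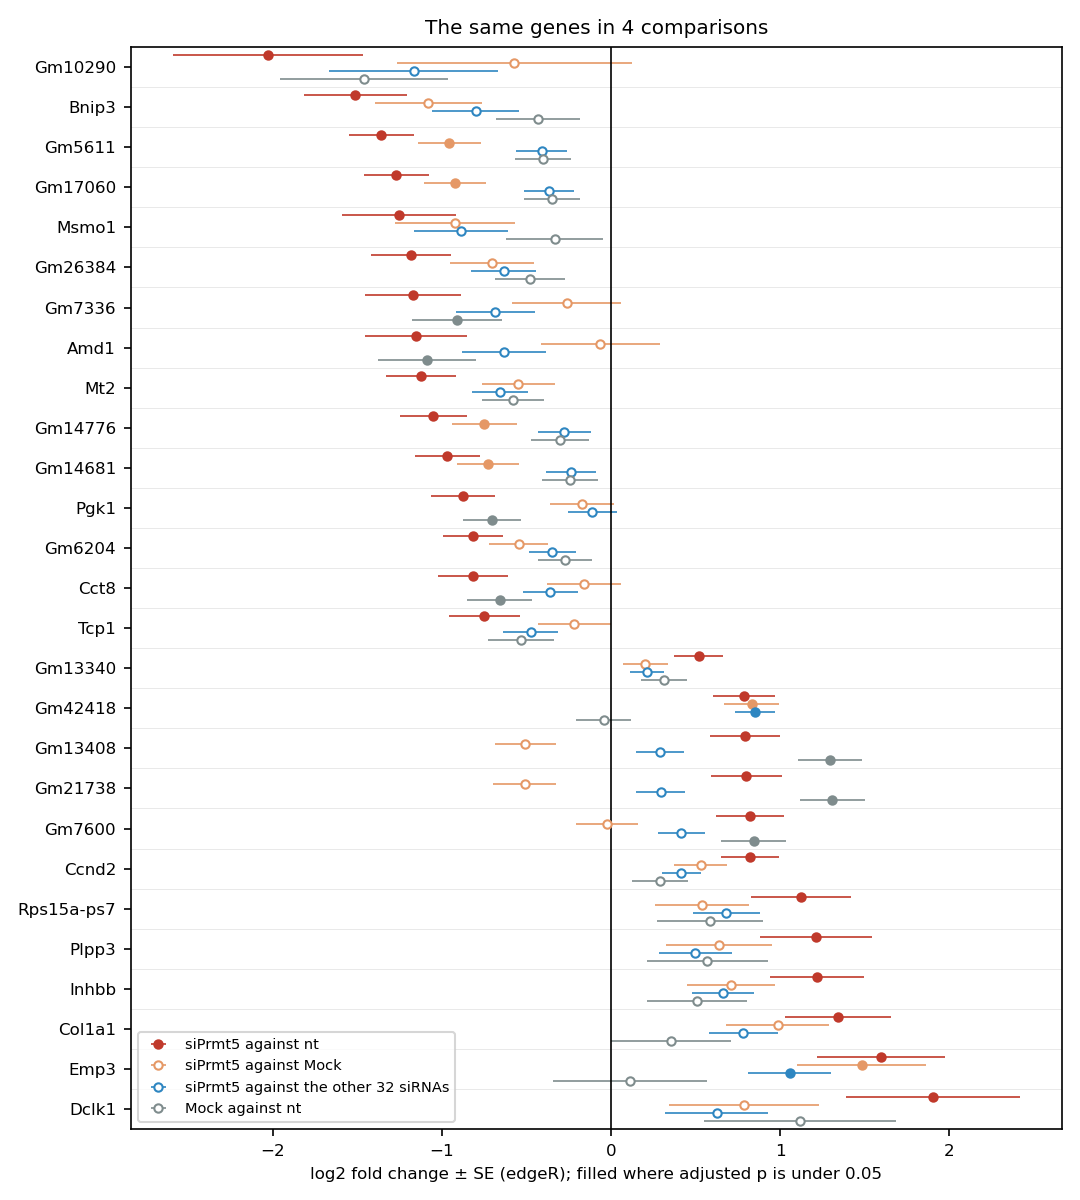
Log2 fold change ± SE of the 27 genes called against nt. The comparisons are siPrmt5 against nt, against Mock and against the other siRNAs, and Mock against nt. Filled points have an adjusted p under 0.05. The comparisons of siPrmt5 share its libraries, and Emp3 and Gm42418 are filled in each of these.

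Outside the matrix and glycolysis lists, no member of the other 18 of 20 gene lists was called against nt. The Sm and Lsm proteins with the factors that assemble them into spliceosomal particles had 15 of 32 members tested, with 9 values above 0, 6 below and a median of 0.27, which was 0.08 without replicate 1 and 0.06 without replicate 3. Snrpb and Snrpd3, which encode Sm proteins that PRMT5 methylates, had -0.02 and -0.17, Snrpd1 had -0.28 ± 0.22, and Strap, a partner of the SMN complex, had 0.85 ± 0.34 (edgeR adjusted p = 0.264). The hnRNP and SR splicing factors had a median of -0.01 over 31 tested genes, with Srsf3 at 0.18 and Pcbp1 at 0.33, and 0.19 without replicate 1.

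The nucleolar and ribosome biogenesis list, which holds Npm1, had 17 of 24 tested genes below 0 and a median of -0.19, with nucleolin (Ncl) at -0.39 (edgeR adjusted p = 0.298) and fibrillarin (Fbl) at -1.20 (edgeR adjusted p = 0.195). Against Mock 14 of the 24 were above 0 with a median of 0.06, and the median was -0.15 in Mock against nt. Cytoplasmic ribosomal protein genes had a median of -0.01 over 73, with Rpl7 at -0.02 and Rps4x at -0.32. Translation factors had -0.12 over 34, with Eef1b2 at -0.30 and Eif3a at -0.23, and had 0.12 against Mock and -0.01 against nt without replicate 1. Mitochondrially encoded genes had 0.08 over 17, with mt-Rnr2 at 0.28 and mt-Rnr1 at 0.08. Their median was -0.04 against Mock, 0.23 in Mock against nt, and 0.03 to 0.15 against nt with single replicates left out. Nuclear respiratory chain genes had -0.01 over 46, with Uqcrh at 0.05 and Cox8a at 0.12.

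In the p53 list (14 of 36 tested, median 0.01) Cdkn1a, the p21 inhibitor of cyclin-dependent kinases, was at 521, 660 and 628 CPM in siPrmt5 and at 383, 404 and 343 CPM in nt. The groups did not overlap, and the log2 change of 0.72 ± 0.24 did not pass (edgeR adjusted p = 0.14). The Mock libraries were at 800, 515, 749.5, 770 and 254 CPM and overlapped siPrmt5 (0.11 against Mock, 0.61 in Mock against nt), and 31 of the 32 other siRNAs had a mean above nt. Ccng1, another p53 target, had -0.21. The median of the p53 list was 0.11 without replicate 1 and 0.22 without replicate 2. The G2/M and mitosis list had 18 of 23 tested genes below 0 and a median of -0.32 against nt, with topoisomerase Top2a at -0.68 (edgeR adjusted p = 0.229) and the condensin gene Smc2 at -0.44. The same list had a median of 0.11 against Mock and of -0.52 in Mock against nt. For S phase genes the median was -0.26 over 15, with Dut at -0.44 and Pcna at -0.56, and for DNA repair genes -0.46 over 4, with Apex1 at -0.73 and Chek1 at -0.19. With single replicates left out these medians were -0.57 to -0.08 and -0.84 to -0.50.

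Among the stress lists, ATF4 and amino acid response genes had a median of -0.04 over 13 (Psat1 -0.35, Eprs -0.66), which was -0.27 without replicate 2 and 0.10 without replicate 3, and heat shock and ER chaperones -0.07 over 19 (Hsp90aa1 -0.21, Hsp90ab1 0.27). Without replicate 3 the heat shock median was -0.15. Interferon-stimulated genes had 2 tested members, Ifitm3 at -0.04 and B2m at -0.33, and histone genes 5 with a median of 0.34 (H2afz -0.04, H3f3b 0.42), which was 0.12 to 0.59 with single replicates left out. Pluripotency genes were mostly too low to test, with 1 of 32 tested, Trim28, at -0.38. Of 32 epithelial genes none passed the filter, and in the fit with genes under it Epcam had -1.07 and Pkp2 -0.05.

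**Figure D4:**
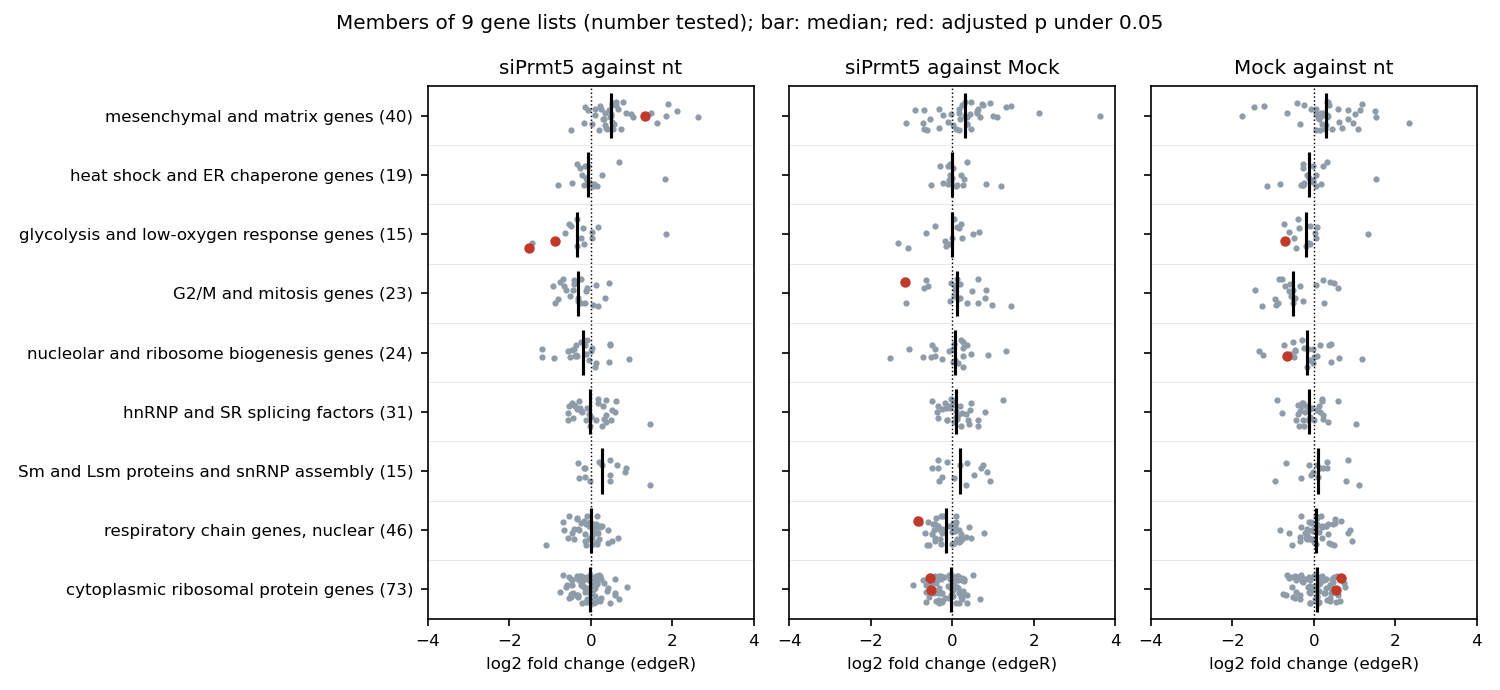
Log2 fold changes of the tested members of 9 gene lists in siPrmt5 against nt, siPrmt5 against Mock and Mock against nt, with a bar at each median and members of adjusted p under 0.05 in red. The matrix list has its median at 0.51, 0.31 and 0.31 and the G2/M list at -0.32, 0.11 and -0.52.

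Against Mock, 9 genes were higher and 22 lower (31, 1.03% of those tested), and without the replicate block none passed (213 genes at an unadjusted p under 0.05). This comparison shares the siPrmt5 libraries with the one above. Of the largest increases, Tcf12, a bHLH partner factor, was at 188, 206 and 218 CPM against 49.7 to 86.5 CPM in Mock, with nt at 167, 180 and 196 CPM (1.67 ± 0.43, edgeR adjusted p = 0.0226). Here siPrmt5 lay near nt and apart from Mock. Tmem234, a membrane protein, was at 292, 248 and 236 CPM against 29.9 to 172 CPM in Mock and 200, 135 and 81.7 CPM in nt (1.57 ± 0.38, edgeR adjusted p = 0.0152). It lay above both controls. Mllt3, a reader in the super elongation complex, was at 20.9, 165 and 174.5 CPM in siPrmt5, 0 to 51.6 CPM in Mock and 66.6, 164.5 and 114 CPM in nt, and overlapped both (2.23 ± 0.60 against Mock, edgeR adjusted p = 0.036). Igf1r, the IGF1 receptor, overlapped both as well, at 167, 41.3 and 227 CPM against 0 to 74.5 CPM in Mock and 50.0, 74.8 and 122.5 CPM in nt (2.03 ± 0.57 against Mock, edgeR adjusted p = 0.0444). Taldo1, transaldolase of the pentose phosphate pathway, was at 146, 268 and 166 CPM against 0 to 144 CPM in Mock and 217, 179.5 and 139 CPM in nt (1.62 ± 0.45 against Mock, edgeR adjusted p = 0.0444). Against nt the values of Mllt3, Igf1r, Taldo1 and Tcf12 were 0.22, 0.84, 0.14 and 0.16, and in Mock against nt they were -2.0, -1.20, -1.48 and -1.50 (edgeR adjusted p = 0.0587, 0.449, 0.0592 and 0.0441).

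Of those lower than Mock, 1110059E24Rik was at 125.1, 82.5 and 122 CPM in siPrmt5, at 239 to 584 CPM in Mock and at 250, 299 and 188 CPM in nt. It lay below all libraries of both controls and changed by -1.69 ± 0.36 (edgeR adjusted p = 0.00218), and it was the 1 gene of those named here that was still called without replicate 3. Hmgb2, a chromatin protein of dividing cells, was at 167, 165 and 166 CPM against 173 to 522 CPM in Mock and 300, 299 and 261 CPM in nt (-1.16 ± 0.33, edgeR adjusted p = 0.0452). Summed with its copies Hmgb2 fell by 1.30 against Mock (edgeR adjusted p = 0.000761) and fell by 0.97 against nt (edgeR adjusted p = 0.0293). The mitochondrial complex I subunit mt-Nd3 was at 396, 289 and 480 CPM against 568 to 1060 CPM in Mock and 483, 613 and 686 CPM in nt, and fell by 1.04 ± 0.23 (edgeR adjusted p = 0.00482). Tmx3, a thioredoxin-like ER protein, changed by -1.40 (edgeR adjusted p = 0.0444).

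Members of the lists that were called against Mock were Rpl10a (-0.53), Rps7 (-0.55), mt-Atp6 (-0.50), mt-Co3 (-0.45), mt-Nd3, Ndufa4 (-0.83) and Hmgb2, each lower in siPrmt5. None of them was called against nt, where the same genes in that order had 0.02, 0.11, -0.16, 0.11, -0.60, -0.17 and -0.76. The difference between the comparisons was not tested. The controls were not interchangeable: in Mock against nt 47 genes were called (1.56% of those tested), of which 31 were higher and 16 lower in Mock.

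Against the 95 libraries of the other siRNAs 3 genes were called, all higher and 0.0996% of those tested: Gm42418, Emp3 and Rab14. Rab14, a small GTPase of endosomal recycling, was at 188, 371 and 340 CPM in siPrmt5 and at 217, 254 and 89.9 CPM in nt, groups that overlapped. Its mean was the highest of the 33 siRNAs, and its log2 change was 0.98 ± 0.24 against the others (edgeR adjusted p = 0.0418). A total of 260 genes had an unadjusted p under 0.05. Without the replicate block Gm42418 alone was called.

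The siRNAs against Prmt2 and Prmt7, 2 other arginine methyltransferase genes, gave a nearer comparison. Their transcripts were hardly counted in the siPrmt5 libraries, at 0, 0 and 1 for Prmt2 and 1, 0 and 2 for Prmt7, so that these targets cannot be compared at this depth. Between siPrmt5 and these 6 libraries 4 genes were higher and 15 lower (19, 0.631%), and 1, Gm42418, remained called without the block. Besides Emp3 (1.25 ± 0.32), Rab14 (1.21 ± 0.31) and Gm42418 (1.07), the secreted matrix phosphoprotein Spp1 rose by 0.98 ± 0.20 (edgeR adjusted p = 0.0236, 0.0236, 8.19e-08 and 0.000643). Spp1 was at 1064, 949 and 1439 CPM in siPrmt5 and averaged 627 CPM in siPrmt2 and 564 CPM in siPrmt7, and its value against nt was 0.14 ± 0.21 (edgeR adjusted p = 0.866). The largest decreases were Gm5865, a copy of Rab2a with 7 counts in siPrmt5 (-2.12 ± 0.53, edgeR adjusted p = 0.0236), Gm17060 (-1.08), Gm5611 (-1.03), Gm14776 (-0.95) and Rpl35 (-0.79 ± 0.18, edgeR adjusted p = 0.00357). The Npm1 sum fell by 0.74 (edgeR adjusted p = 0.000155), with means of 19793 CPM in siPrmt2 and 20665 CPM in siPrmt7. Rab2a summed with its copies did not pass (-0.66, edgeR adjusted p = 0.164). The ribosomal protein genes Rpl10a (-0.50) and Rpl7 (-0.46) and the mitochondrial gene mt-Co3 (-0.51) were lower too (edgeR adjusted p = 0.0308, 0.0397 and 0.00274).

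The place of siPrmt5 along the untransfected course was described with a score, the mean log2 level of 321 genes higher at Day06 than at Day00 minus that of 347 genes that were lower. It was -1.44 at Day00, 0.09 at Day01, 0.24 at Day02 and -0.13 at Day03. It then reached 0.63 at Day04, 0.94 at Day05 and 1.21 ± 0.09 (SD) at Day06. The score thus fell from Day02 to Day03, and the means of nt (1.49) and Mock (1.39) lay above Day06. A lower score therefore does not by itself mark an earlier day. The siPrmt5 libraries scored 1.163, 1.142 and 1.314, the nt libraries 1.458, 1.365 and 1.651, and the Mock libraries 1.538, 1.281, 1.335, 1.252 and 1.558. All siPrmt5 libraries lay below all nt libraries, and the highest siPrmt5 library, in replicate 3, lay above 2 Mock libraries, 1 of replicate 1 and 1 of replicate 2. Within replicates 1, 2 and 3 the score of siPrmt5 minus that of nt and Mock together was -0.263, -0.176 and -0.291, a mean difference of -0.243 (two-sided exact permutation test within replicates, p = 0.0208, the smallest that the 48 arrangements allow). Against nt alone the difference was -0.285 (exact permutation p = 0.25, the smallest that pairs of single libraries in 3 replicates allow) and against Mock alone -0.214 (exact permutation p = 0.1111, with no p under 0.0556 possible), designs too small to pass 0.05. Of the other siRNAs 26 scored higher than siPrmt5 and 6 lower, from 0.517 in siWdr5 to 1.85 in siPou5f1 with a median of 1.38, and siPrmt2 and siPrmt7 were at 1.41 and 1.43.

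**Figure D5:**
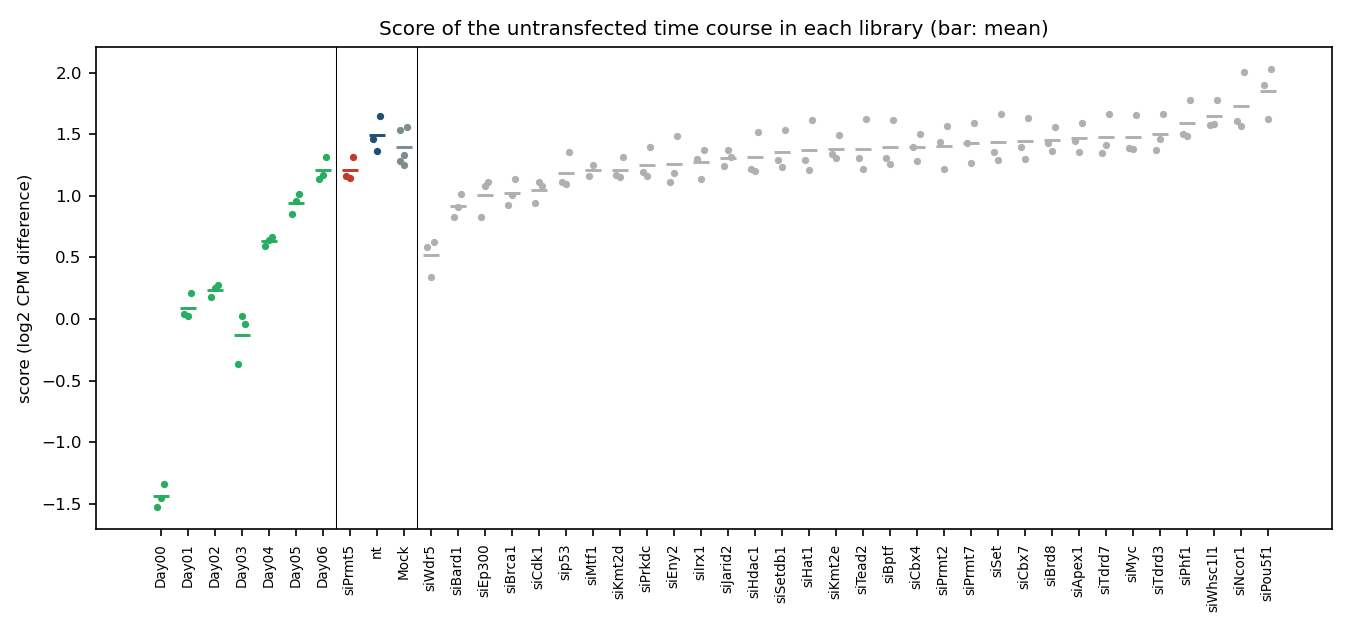
Time-course score (difference of mean log2 levels) of each library by condition, untransfected days and transfected conditions on a shared axis. The siPrmt5 libraries, 1.142 to 1.314, lie under the nt libraries, 1.365 to 1.651, and near the Day06 mean of 1.21.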

How the data were processed

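Cells were MEFs in dox-induced reprogramming, and bulk RNA was read with CEL-Seq2, which tags transcript 3′ ends with molecular identifiers. The authors aligned reads to mm10 with Bowtie2, assigned them to GENCODE genes with the CEL-Seq2 pipeline, removed low-quality libraries and deposited whole-number counts per gene and, separately, log2 values after their own scaling and batch regression (10568 genes, -5.3 to 5.19). The sample labels give the sequenced pool, and conditions were read from the column names. Of 129 count columns 2 were left out because the log2 table does not hold them. The pair of Mock columns per replicate share a name and were told apart by column order, and in replicate 3, where the log2 table keeps a single Mock library, it was matched by correlation (r = 0.924 against 0.0172).

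All 127 libraries were fitted together with edgeR 4.0.16 (R 4.3.3; TMM scaling, filterByExpr by condition, quasi-likelihood test on condition plus replicate number, 83 residual degrees of freedom, Benjamini-Hochberg adjustment, threshold 0.05). The block is the sequenced pool, which is how the labels pair same-numbered libraries. Deviations of the 127 libraries from their condition means correlated with a median r of 0.098 within a number and -0.0707 between numbers (0.0578, 0.0861 and 0.22 within replicates 1, 2 and 3). Replicates differed by 1.35 to 2.44 times the chi-square of sampling noise per gene, so none was a copy of another. limma 3.58.1, DESeq2 1.42.0, other filters and scalings and single left-out replicates were alternatives. The fits were tested on simulated data. Near-identical copies (at least 95% identity over 200 bases or over 80% of the copy, families at 90%) were found with blastn 2.17.0 and summed over families in a fit added after seeing the data. Sequences came from RefSeq, the mm10 annotation and the siRNA list of the study.

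The genes named are all called against nt (the limit was 30), the 5 largest called changes each way in other comparisons, Prmt5 and its partners, and called list members or else the 2 most abundant. A few further members of the matrix, splicing, nucleolar and p53 lists, and the parent genes of copies, were named after their values were seen. The comparison, the members and the gene lists were chosen with earlier results of these data known.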

Additional observations from a re-analysis of the deposited data

Results flagged for a closer look

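Of 64 values tested in the 5 Mock libraries, 4 had 1 library whose gap to the nearest other exceeded 0.71 of the whole range, and chance alone gives about 1 such value in 20. For Ccnd2 a Mock library of replicate 2 stood at 2284 CPM, the others being at 1342 to 1579 CPM. For Gm26384 the Mock library of replicate 3 was at 1120 CPM and the others at 206 to 378 CPM, and replicate 3 was also the highest in nt (1160 CPM) and in siPrmt5 (488.5 CPM). The test takes no account of the replicate. Prmt2 was at 34.3 CPM in 1 Mock library and at 0 in the others. Prmt7 was at 51.6 CPM in 1 Mock library and at 0 to 14.9 CPM in the others. The siPrmt5 and nt groups of 3 libraries are too small for this test.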

How the results depend on the processing

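The 27 calls against nt became 27 with another scaling (RLE size factors, 14 higher and 13 lower), of which 25 were the same genes. The calls numbered 35 with DESeq2, 30 with a filter of at least 50 CPM, and 21 with nt and Mock together. They were 13 (2 higher, 11 lower) with no filter on low counts, 0 with limma, 2 without the replicate block, 3 to 16 with 1 replicate left out, and 6 (5 higher, 1 lower) among genes with no near-identical copy, no coding gene alike at 90% identity and no opposite-strand gene, an alternative chosen after seeing the data. The 31 against Mock became 12 with no filter, 0 with limma (665 at an unadjusted p under 0.05), 0 without the block, 13 in a fit of those groups alone and 2 to 14 with 1 replicate left out. The 3 against the other siRNAs became 5 with RLE (4 higher, 1 lower), 9 with DESeq2, 18 with no filter, 5 with at least 50 CPM, 0 with limma (484), 1 without the block and 1 to 8 with 1 replicate left out. The 19 against siPrmt2 and siPrmt7 became 39 with DESeq2, 0 with limma (527), 1 without the block and 1 to 17 with 1 replicate left out. The 47 in Mock against nt became 19 with no filter, 1 with limma, 10 without the block and 15 to 21 with 1 replicate left out, and 39 of 50 were higher with RLE.

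Without the pairing by pool most calls were lost. No value behind the 57 named calls changed sign: of their recomputed values 293 stayed on their side of the threshold and 293 lost the call. Named genes without a call were not part of this count. Of the 2 interferon-stimulated genes tested, both below 0 in the main fit, 1 was above 0 with RLE and with DESeq2. Summing copies lost the call of Amd1, Gm6204, Gm7600, Gm13408 and Gm13340. The score difference was -0.285 against nt alone, -0.214 against Mock alone and -0.294 to -0.235 with 1 replicate left out, designs in which no exact permutation p could pass 0.05. The medians of the matrix, G2/M, nucleolar and glycolysis lists against nt kept their sign with RLE (0.55, -0.28, -0.15 and -0.29), with DESeq2, without the block and without each replicate, where the matrix median was 0.41 to 0.55 and the glycolysis median moved from -0.33 to -0.10 without replicate 1 and to -0.48 without replicate 2. The causes were not tested. At the depth of these libraries 31 of 32 pluripotency genes and all epithelial list genes were below the filter, and Prmt5 itself was at 4 to 8 counts in siPrmt5.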
